A study of Mus musculus with 8 samples.

Results

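The cytosolic ribosomal protein genes were followed here in label-retaining and non-label-retaining biliary cells of the mouse liver. They were taken as the protein-coding genes whose symbol is Rpl or Rps with a number, which the letters a, x, l or l1 may follow, together with Rplp0, Rplp1, Rplp2 and Rpsa. The rule found 82 genes among the 46603 rows of the gene count table, 51 of the large subunit and 31 of the small subunit. Rps4l, Rps12l1 and Rpl6l have fitting symbols but are annotated as pseudogenes, and these 3 rows were left out. Genes for mitochondrial ribosomal proteins and for S6 kinases were not members.

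RNA was sequenced from liver cells of 4 mice, sorted as EpCAM+ CD45- per the study's methods (JV602, JV621, JV624 and JV6314), with an EGFP-positive library (LLRC) and an EGFP-negative library (non-LRC) from each mouse. All mice carried R26rtTA and H2B-EGFP, each heterozygous, so that doxycycline switched on a green histone in whichever cells express the Rosa26 locus, and each later division diluted it. All mice had doxycycline up to postnatal day 5, and the cells were sorted at 8 weeks of age, so LLRCs and non-LRC cells differ in retained label and not in genotype or treatment. The mice were of mixed C57BL/6 and CBA background, and the transgene is known to be active without doxycycline in hematopoietic cells. Cholangiocyte markers were read in every library. Their summed level was carried by Spp1, at 111910 to 218645 CPM in LLRCs against 64249 to 159148 CPM in non-LRC cells (CPM, the count scaled to a common TMM-scaled library size), while Epcam averaged 583 and 551 CPM and Krt19 averaged 116 and 134 CPM. Of the 12 cholangiocyte markers, 11 had log2 fold changes (LLRC over non-LRC) above 0, with a median of 0.24 over the list. Krt19 was the exception at -0.20, and Cftr had the highest value, 1.43. None had an adjusted p below 0.05 in edgeR's quasi-likelihood test. Total counts were 7860021 to 9851819 in LLRC libraries and 4670132 to 8056103 in non-LRC libraries.

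Ribosomal proteins are made in matched amounts for assembly into ribosomes, and their mRNAs belong to the most abundant class in growing cells. The mRNAs of these proteins begin with a pyrimidine tract, the TOP (terminal oligopyrimidine) motif, through which the mTORC1 kinase sets their translation together. The mammalian genome also holds many processed pseudogenes, intronless copies of ribosomal protein mRNAs that differ little from their source.

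TOP motifs stood at the annotated transcription start of some of the members. The windows below hold 15 bases before and 15 bases from the RefSeq start (GRCm38.p6, written 5′ to 3′ on the gene's strand), and capitals mark a C at the start with the unbroken run of C and T that follows it. The genes shown are named members with such a run, and Rpl4 and Rplp0 are shown as abundant members without one at their annotated start. Rpl35a also has other annotated starts, which have no such run and are not shown.
Rps6, chr4:86857353-86857382, minus strand: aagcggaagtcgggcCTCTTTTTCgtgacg
Rpl35a, chr16:33056467-33056496, plus strand: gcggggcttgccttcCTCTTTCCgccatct
Rpl15, chr14:18270972-18271001, minus strand: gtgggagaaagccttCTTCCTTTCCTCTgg
Rps10, chr17:27635230-27635259, minus strand: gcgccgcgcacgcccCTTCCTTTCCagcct
Rplp2, chr7:141447636-141447665, plus strand: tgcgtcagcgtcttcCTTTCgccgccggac
Rpl4, chr9:64173372-64173401, plus strand: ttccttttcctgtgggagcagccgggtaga
Rplp0, chr5:115559452-115559481, plus strand: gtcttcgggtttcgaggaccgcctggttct
The table of promoter windows held 74 windows for 62 of the 82 members. A C followed by at least 4 bases that are each C or T, read on the gene's strand, began at the annotated start in 13 member windows (17.6%) and in 2.51% of the 32851 windows of all genes. A wider search let the run begin within 10 bases of the start, but counted it only where no C or T stood before its first C. By this different rule 40.5% of member windows and 22.9% of all windows held one. The tract of Rplp2, which begins with a T before the start, was not counted. A window without the run says only that these letters are not at this annotated start.

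Many members also share their coding sequence with pseudogenes. The next pairs show the first 50 coding bases of a member beside the best ungapped match in a pseudogene (GENCODE M21 transcripts, GRCm38), with differing bases in capitals. Rps16 is shown as a gene whose copy is identical here, and Rpl4 as a highly read gene with a close copy.
Rps16, chr7:28350804-28350993, plus strand, across an intron: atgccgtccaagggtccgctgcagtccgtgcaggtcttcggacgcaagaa
Rps16-ps2, chr5:129128468-129128517, minus strand: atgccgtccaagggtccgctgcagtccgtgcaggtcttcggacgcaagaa
Rpl4, chr9:64173431-64174870, plus strand, across an intron: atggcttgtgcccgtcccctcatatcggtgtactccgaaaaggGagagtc
Gm5835, chr1:143094557-143094606, minus strand: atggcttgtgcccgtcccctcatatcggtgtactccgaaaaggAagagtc
The pairs differed at 0 and 1 of 50 bases. Over whole coding sequences, a median of 82.6% of a member's distinct 50-base stretches were also present in transcripts of another gene, and in 20 of the 82 members this share was 100%. In all, 1240 pseudogenes of the count table matched a member best, with at least 80% identity over at least 50% of the pseudogene, and 81 of the 82 members had at least 1. Rpl7a had the most, 104.

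The members took a small share of the counts, and their pseudogenes took a larger one. The 82 members together held 0.234%, 0.180%, 0.158% and 0.174% of all counts in LLRCs (mice in the order JV602, JV621, JV624, JV6314, here and in the lists of values that follow). The non-LRC libraries gave 0.202%, 0.135%, 0.291% and 0.253%. The share was thus lowest and highest in non-LRC libraries, and the groups overlapped. Wilson 95% intervals of these shares were no wider than from 0.286% to 0.295%, in the non-LRC library of JV624, and cover counting error only.

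The matched pseudogenes held 0.337%, 0.233%, 0.204% and 0.253% of counts in the LLRC libraries and 0.276%, 0.161%, 0.445% and 0.350% in the non-LRC libraries. Pseudogene counts exceeded member counts in every library, by 1.19 to 1.53 times, and the libraries stood in nearly the same order for both sums. Over all libraries the members had 117220 counts and their pseudogenes 162411. For 59 of the 82 members, the pseudogenes together held more counts than the member. For Rps16, shown above, the gene had 1177 counts over the 8 libraries and its 7 pseudogenes 2840, of which Rps16-ps2 had 2056. For Rpl4 the gene had 11299 counts and its single pseudogene, Gm5835, 3331.

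**Figure D1:**
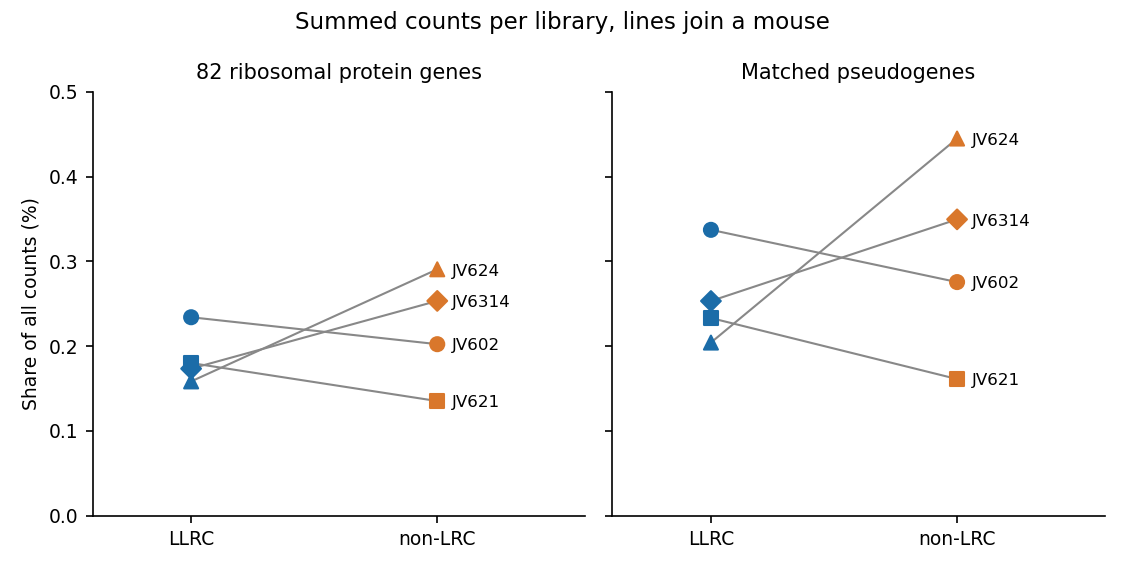
Share of all counts in percent (vertical axis, from 0) held by the 82 ribosomal protein genes (left) and by their 1240 matched pseudogenes (right) in LLRC (blue) and non-LRC (orange) libraries, 1 point per library with lines joining the libraries of a mouse. The lines of JV602 and JV621 go down and those of JV624 and JV6314 go up from LLRC to non-LRC in both panels, between 0.135% and 0.291% for the genes and between 0.161% and 0.445% for the pseudogenes.

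Levels differed widely among the members and were highest in a few genes. Given per kb of annotated exon and averaged over the 8 libraries, Rps27l stood at 158 CPM per kb, Rpl4 at 96.0, Rpl15 at 69.9 and Rplp1 at 39.2. Rps27l is a paralog of Rps27 and a known p53 target, Rpl4 lines the exit tunnel of the large subunit, and Rplp1 belongs to the stalk that recruits elongation factors. The median of all 82 members was 7.62 CPM per kb, and 57 of the 77 members tested were above 4.22, the median of the 11411 protein-coding genes tested. The 5 members with the most counts held 33.7% of all member counts. The annotated exons here include those of rare transcripts, so a long annotation lowers the level per kb.

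The paralogs known from other tissues were scarcely read. Rpl39l had 0 counts in all 8 libraries, which allows a level of up to 0.291 to 0.626 CPM in a library (3 counts). Rpl3l, a muscle gene, had 5 counts in the non-LRC library of JV624 and 0 in the others, and Rpl10l, a testis gene, had 10 counts in the non-LRC library of JV602 and 0 in the others. Rpl29 and Rps12, which are not among these paralogs, had 61 and 53 counts in all. Their 80 and 22 matched pseudogenes held more, 986 and 428 counts. Rpl39l, Rpl3l, Rpl10l, Rpl29 and Rps12 did not pass the expression filter, and 77 members were tested. In contrast, the paralogs Rpl22l1 and Rpl7l1 stood at 20.1 and 12.6 CPM per kb.

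Members with less shared coding sequence had higher levels as a group, with wide overlap. The 14 tested members with under 50% of their coding 50-base stretches shared had a median of 22.6 CPM per kb (range 3.62 to 158). The 31 members with 50% to 90% shared had a median of 6.56 (range 0.909 to 39.2), and the 32 with 90% or more had a median of 6.22 (range 0.912 to 69.9). Spearman's rho between the shared percentage and the level per kb was -0.386 across these 77 genes, which share libraries and annotation and are not independent replicates. Rpl15 went against the trend, with 100% of its coding stretches shared and the third highest level. The aligner and its treatment of reads that match several places are not given in the sources used here, and whether shared sequence set these levels was not tested.

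**Figure D2:**
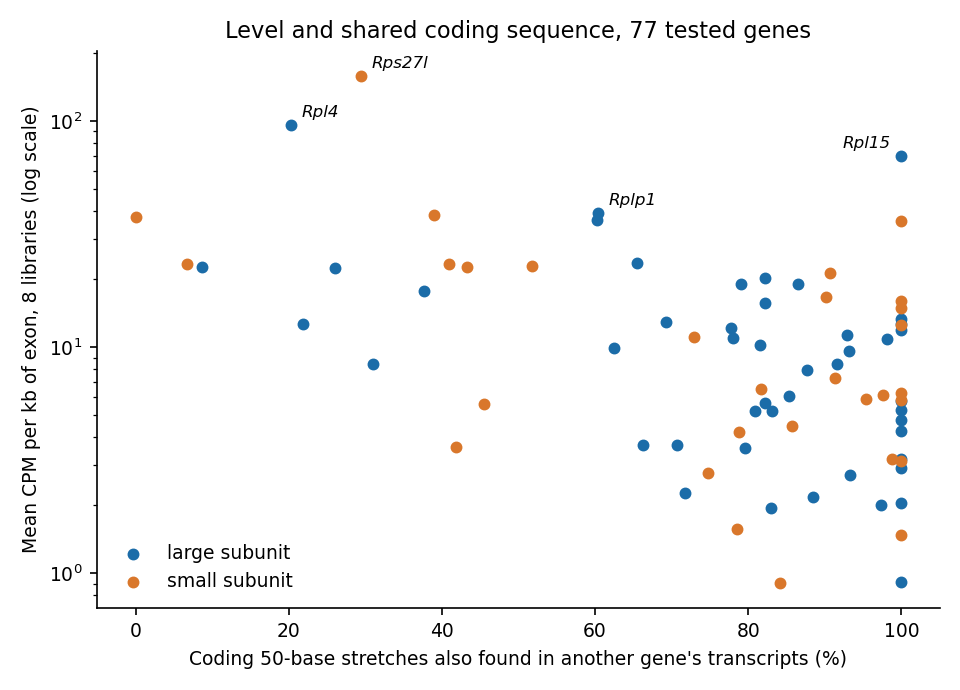
Mean level of each tested member in CPM per kb of exon over 8 libraries (vertical axis, log scale) against the percentage of its distinct coding 50-base stretches that another gene's transcripts also hold (horizontal axis), with large subunit genes in blue and small subunit genes in orange. Points scatter widely at every percentage, and Rps27l at 158, Rpl4 at 96.0 and Rpl15 at 69.9 CPM per kb lie highest.

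The comparison of LLRCs with non-LRC cells asks whether cells that divided rarely carry a different set of mRNAs. No member passed the test: 0 of 77 had an adjusted p below 0.05 in either direction with edgeR's quasi-likelihood test, which called 0 of all 13605 genes (0% higher and 0% lower in LLRCs). At an unadjusted p below 0.05 it found 1 member, Rpl35a, and 702 of all genes (5.16%). DESeq2's Wald test called 1.65% of its genes and edgeR's exact test 1.13% of its genes, and neither called a member. In bulk libraries of this kind, fewer cells of a type and less RNA per cell cannot be told apart.

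Fold changes of the members were small and mostly negative. The median log2 fold change (LLRC over non-LRC) over the 77 members was -0.23, with quartiles at -0.32 and -0.08, against -0.01 over all 13605 genes. It was below 0 in 61 members (79.2%) and in 51.1% of all genes. The large subunit had a median of -0.21 (36 of 47 below 0) and the small subunit -0.27 (25 of 30 below 0). The median standard error of a single member was 0.41, and for 18 members the 95% interval lay within -1 and 1, as it did in 13.3% of all genes. For the other members these 4 libraries per group leave changes larger than that possible.

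**Figure D3:**
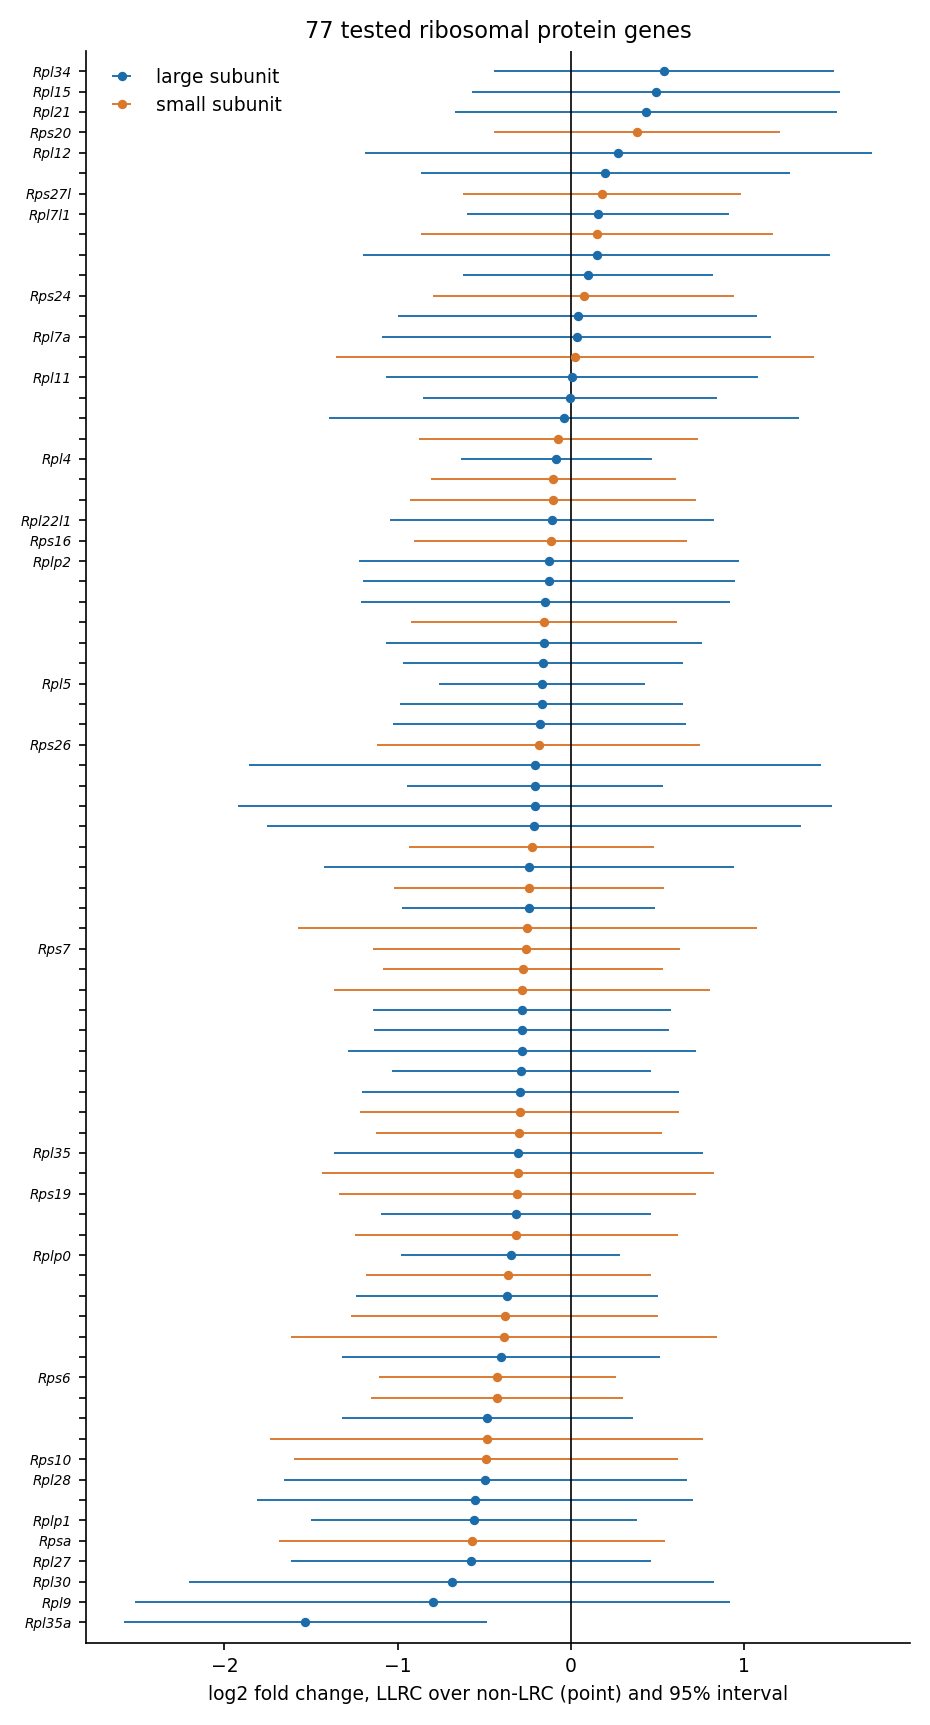
Log2 fold change of each of the 77 tested members, LLRC over non-LRC (points), with its 95% interval from edgeR's quasi-likelihood fit (bars), sorted by value and with the genes described in the text labelled, with large subunit genes in blue and small subunit genes in orange. Points run from -1.53 for Rpl35a to 0.54 for Rpl34, and the interval of Rpl35a alone leaves out 0.

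The direction was not shared by the mice. The median log2 ratio over the 77 members was 0.08 in JV602 and 0.33 in JV621, where all genes had medians of 0.01 and 0.31. It was -0.62 in JV624 and -0.31 in JV6314, where all genes had -0.03 and 0.09. Members were lower in the LLRC library for 30 of 77 in JV602, 21 in JV621, 66 in JV624 and 54 in JV6314. Over all genes these shares were 48.9%, 40.4%, 51.1% and 46.2%. Members lower in the LLRC library of every mouse were Rpl27, Rpl28 and Rps6, 3 of 77 beside 5.53% of all genes, and Rpl34 alone was higher in all 4, beside 7.74%. The summed share of the members gave log2 ratios of 0.21, 0.41, -0.88 and -0.55 in JV602, JV621, JV624 and JV6314, a mean of -0.20 with an SD of 0.61 (n = 4 mice). Relative to TMM-scaled library sizes the ratios were -0.016, 0.15, -0.38 and -0.30, so that the direction in JV602 turned, with a mean of -0.14 and an SD of 0.25. Without the 5 members with the most counts the mean of the summed share was -0.31 with an SD of 0.62, and the ratio in JV621 was 0.19. Without JV624 the mean of the summed share was 0.026, without JV621 -0.40, without JV602 -0.34 and without JV6314 -0.084. In the fit with JV624 left out and the mouse as replicate block the median log2 fold change was 0.04 over the members and 0.19 over all genes. With all 4 mice and the replicate block it was -0.15 over the members and 0.14 over all genes, so the members lay below the median gene in both fits.

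The highest value of most members lay in 2 non-LRC libraries, and the lowest often in another. Of the 77 members, 40 were highest in the non-LRC library of JV624 and 20 in that of JV6314, where 17.4% and 16.8% of all genes were highest. The lowest value fell in the non-LRC library of JV621 for 46 members, and for 37.3% of all genes. LLRC libraries held the highest value of 6 members and of 34.5% of all genes, and the lowest value of 19 members and of 25.4% of all genes. The same libraries stood apart in markers of other liver cells. The 12 hepatocyte markers summed to 7926 CPM in the non-LRC library of JV624 and 6873 CPM in that of JV6314, and to 2184 to 3513 CPM in the other 6 libraries. The 10 stellate and fibroblast markers summed to 2772 and 2271 CPM in those 2 libraries and to 272 to 871 CPM elsewhere, with Dcn alone at 2311 and 1815 CPM in those 2. The 6 erythroid markers reached 455 CPM in the non-LRC library of JV624 and 112 CPM in the LLRC library of the same mouse, against at most 16.0 CPM in the others. The non-LRC library of JV621 had the fewest genes with a read, 14234 against 16042 to 20430. The 12 endothelial markers were at 30.9 to 59.7 CPM in LLRCs against 196 to 645 CPM in the non-LRC group. The part of these cells and of depth in the members' levels was not tested.

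**Figure D4:**
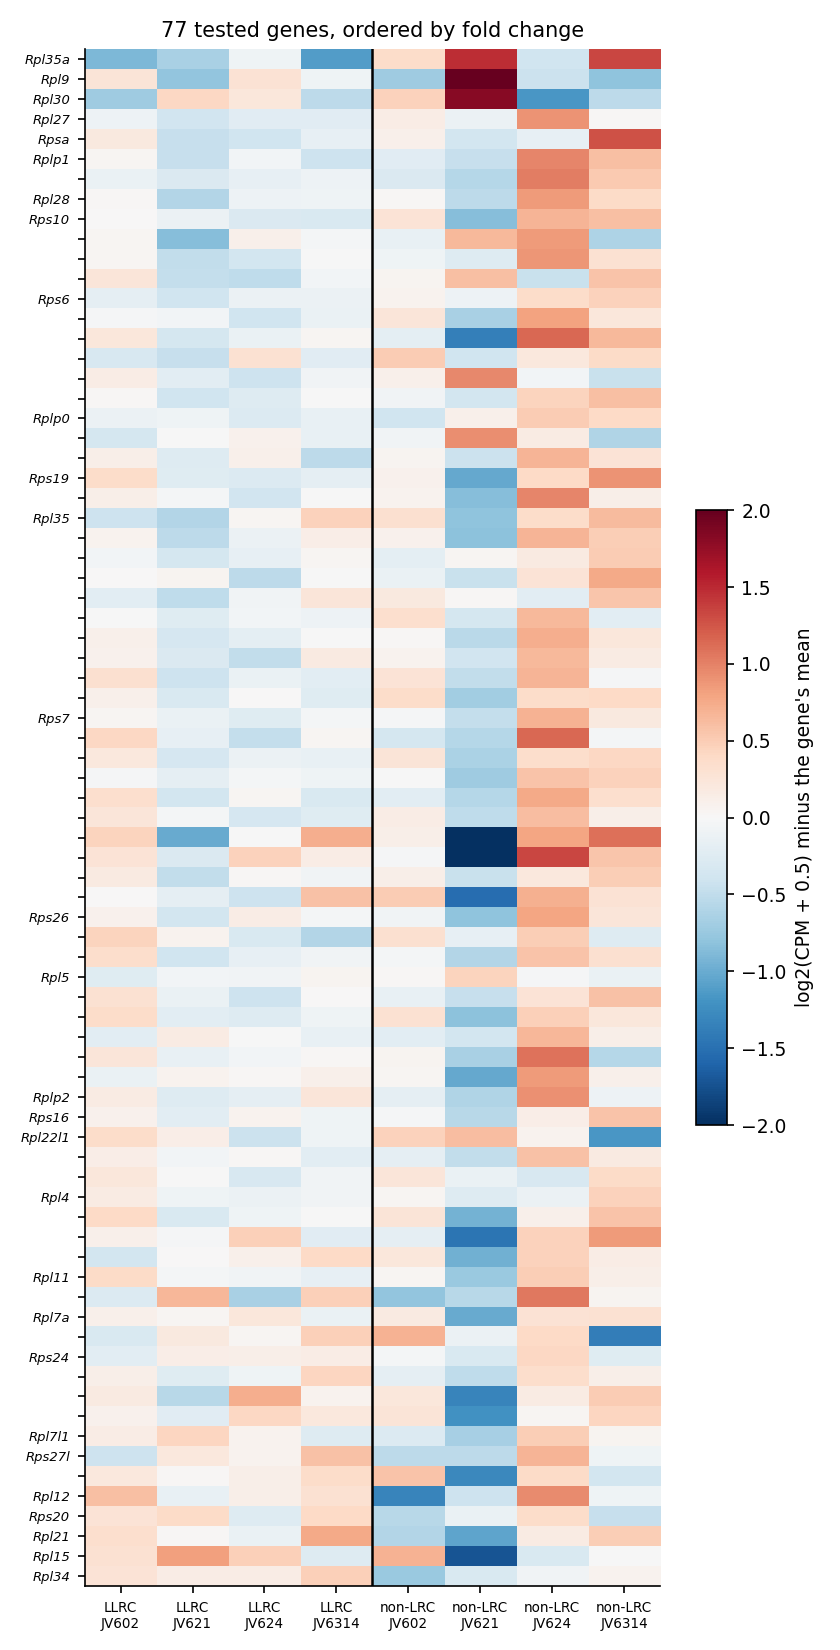
Level of each of the 77 tested members in each library as log2(CPM + 0.5) minus the mean of that gene over the 8 libraries (colour, red above and blue below the mean, saturating at 2.0 on either side), with members in rows ordered by log2 fold change, those described in the text labelled, and libraries in columns, LLRC to the left of the line. Most rows are red in the non-LRC library of JV624, which held the highest value of 40 members, and blue in that of JV621, which held the lowest value of 46.

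Rpl35a had the lowest fold change of all members. It encodes a protein of the large subunit, is among the genes mutated in Diamond-Blackfan anaemia, and lies at chr16:33056453-33060189 (GRCm38). It stood at 23.7, 28.1, 41.9 and 20.2 CPM in LLRCs, while the non-LRC libraries gave 57.6, 125.7, 33.6 and 113.1 CPM. The groups overlapped through JV624 alone, where the LLRC library was the higher. The log2 fold change was -1.53 (standard error 0.46, 95% interval -2.58 to -0.49, unadjusted p = 0.00896, adjusted p = 0.556 in edgeR's quasi-likelihood test). With the mouse as replicate block it was -1.43 (unadjusted p = 0.0427, adjusted p = 1.0). No exon base of Rpl35a overlaps an exon of another annotated gene. The 27 pseudogenes matched to it had 2270 counts beside its own 2797, and when they were added, the log2 fold change was -1.02 (unadjusted p = 0.00497, adjusted p = 0.407 in edgeR's test) and the groups did not overlap. With mouse JV602, JV621 or JV6314 left out and the replicate block, no member had an unadjusted p below 0.05.

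Rps6 and Rpl34 were the members whose groups did not overlap, 1 in each direction beside 1.91% of all genes below and 2.15% above. Rps6, the small subunit protein that S6 kinases phosphorylate downstream of mTORC1, lies at chr4:86854660-86857412. It stood at 20.4, 17.5, 21.3 and 21.3 CPM in LLRCs. The non-LRC libraries had 24.3, 21.5, 30.1 and 32.2 CPM. The highest LLRC value and the lowest non-LRC value, 21.3 and 21.5 CPM, lay close together. The groups overlapped under upper-quartile scaling, with library size only, with genes kept at 1 CPM in 2 libraries, with no filter and when pseudogenes were added. Its log2 fold change was -0.43 (standard error 0.30), and edgeR's quasi-likelihood test gave an adjusted p of 0.9999. Rpl34 (chr3:130726831-130730398), of the large subunit, had 7.08, 6.51, 6.47 and 8.22 CPM in LLRCs against 3.26, 4.59, 5.52 and 6.12 CPM in the non-LRC libraries. Its log2 fold change of 0.54 (standard error 0.44) turned to -0.10 when its pseudogenes were added, and its groups overlapped then and with library size only. Neither gene had an unadjusted p below 0.05.

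**Figure D5:**
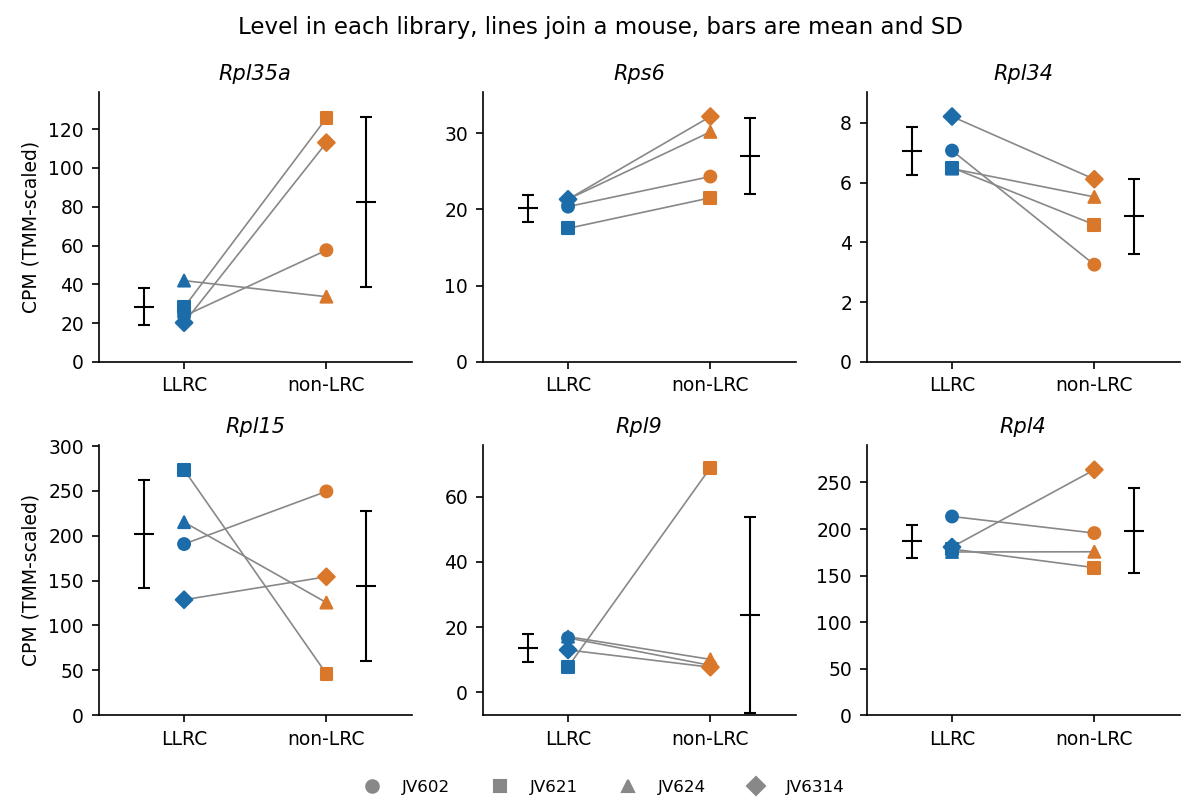
Level of 6 members in CPM (vertical axes, TMM-scaled) in LLRC (blue) and non-LRC (orange) libraries, with lines joining the libraries of a mouse, marker shapes naming the mouse, and black bars giving the mean and SD of 4 libraries. Rpl35a lies at 20.2 to 41.9 CPM in LLRCs and at 33.6 to 125.7 CPM in the non-LRC group, and a single non-LRC library, at 68.9 CPM, sets the mean of Rpl9.

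Other members at the ends of the range moved with single libraries. Rpl9 stood at 68.9 CPM in the non-LRC library of JV621 and between 7.70 and 17.1 CPM in the other 7 libraries. Its log2 fold change of -0.80 became 0.66 without that library. Rpl30 likewise had 46.1 CPM in that library and 5.37 to 17.7 CPM in the others, and went from -0.69 to 0.19 without it. Rpl15, with a log2 fold change of 0.49, showed the converse, at 46.1 CPM in the non-LRC library of JV621 and 125.5 to 273.6 CPM elsewhere, and its value was 0.20 without that library. Rpl21 (0.43), Rps20 (0.38) and Rpl12 (0.27) completed the 5 highest values (in that order 0.037, 0.18 and -0.31 with pseudogenes added), and Rpl27 (-0.58, and -0.28 without the non-LRC library of JV624) and Rpsa (-0.57) the 5 lowest. Their 95% intervals all included 0.

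The genes of the stalk proteins and Rpsa all had log2 fold changes below 0. Rplp0, the stalk base, averaged 53.5 ± 2.98 CPM over the LLRC libraries against 68.2 ± 17.8 CPM over the others (SD, n = 4), and its log2 fold change was -0.35. Rplp1 and Rplp2, which form the flexible stalk, had log2 fold changes of -0.56 and -0.13. Rpsa, also known as the laminin receptor precursor, was at 8.13 ± 1.89 and 12.1 ± 7.42 CPM, and its non-LRC library of JV6314 alone held 23.1 CPM. Without that library the log2 fold change of Rpsa went from -0.57 to -0.050, and without the non-LRC library of JV624 that of Rplp1 went to -0.26. None of the 4 had an unadjusted p below 0.05, and Rplp2 turned to 0.31 without the non-LRC library of JV624.

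Diamond-Blackfan anaemia is caused by mutations in ribosomal protein genes, of which 9 were listed here and others were not. Of the 9, Rpl35a was the single gene with an unadjusted p below 0.05, and 7 had log2 fold changes below 0 (median -0.26). Rpl5 and Rpl11, which with the ribosomal RNA of the large subunit can bind Mdm2 and stabilise p53, had values of -0.17 and 0.01, with 46.6 ± 3.91 and 5.43 ± 1.05 CPM in LLRCs. Rps19, the gene most often mutated in this anaemia, averaged 15.1 ± 3.57 CPM in LLRCs against 18.8 ± 9.26 CPM in the non-LRC group (SD, n = 4). Rps24 and Rps10 marked the range of the rest at 0.07 and -0.49, with Rps7 at -0.26 and Rps26 at -0.19. Over the 24 alternatives in processing, Rps10 ranged from -0.76 to -0.16. The 9 genes summed to 138.9 to 156.3 CPM in LLRCs against 179.5 to 254.1 CPM in the non-LRC group, which did not overlap. Without Rpl35a the other 8 summed to 110.7 to 119.8 CPM and 112.8 to 156.1 CPM, and the groups overlapped. Within each mouse this sum was lower in the LLRC library, by little in JV602 and JV621. It was 119.6, 110.7, 114.4 and 119.8 CPM in LLRCs against 121.9, 112.8, 156.1 and 141.1 CPM. Trp53, Cdkn1a and Mdm2 themselves had values of 0.31, 0.55 and -0.23, none with an unadjusted p below 0.05. Of the paralogs tested, Rps27l was at 0.18, Rpl7l1 at 0.15 and Rpl22l1 at -0.11.

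Ribosomal proteins whose symbols the rule does not take differed in direction between the mice. Fau, which encodes a fusion of a ubiquitin-like part with a ribosomal protein, had a log2 fold change of -0.31, and all 5 genes of this kind were below 0, none with an unadjusted p below 0.05. Their summed level was higher in the LLRC library of JV602 (117.3 against 107.6 CPM) and JV621 (89.4 against 84.6 CPM) and lower in that of JV624 (102.5 against 152.8 CPM) and JV6314 (118.7 against 149.0 CPM). The pseudogenes themselves, of which 384 passed the filter, had a median of -0.15 with 276 below 0, and 0 of them had an unadjusted p below 0.05 in the quasi-likelihood test. Since reads of a member can be placed on its pseudogene and the reverse, these values are not independent of those of the members.

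Lists of related genes held no gene past the threshold. The 77 tested genes of mitochondrial ribosomal proteins had a median log2 fold change of -0.06 (46 below 0) and ran from -0.62 for Mrpl12 to 0.56 for Mrpl57. The 16 elongation factors and other genes with TOP mRNAs had a median of -0.07, from -0.49 for the initiation factor subunit Eif3f to 0.41 for the poly(A)-binding protein Pabpc1. The 24 ribosome assembly factors tested had a median of 0.02, from -0.84 for Nop2, an rRNA methyltransferase, to 1.32 for Ltv1, an export factor of the small subunit (standard error 0.74). For RNA polymerase I the 8 genes tested had a median of 0.09, and for mTORC1 and regulators of TOP mRNAs the 12 genes tested had a median of -0.09, with Tsc1 at 1.23 and Mlst8 at -1.70. No gene of these 5 lists had an unadjusted p below 0.05 in the quasi-likelihood test. Under the rule of the wider search for pyrimidine runs above, 26 tested members held a run and had a median of -0.28, with 20 below 0. The 32 tested members with a window but no such run, Rplp2 among them, had a median of -0.17, with 27 below 0. The difference was not tested.

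Overlap with other genes concerned few of the genes named. Exons of 11 members share more than 20% of their bases with exons of another gene, up to 66.2% for Rpl35 with Wdr38 on the opposite strand. Counting ignored strand and its union mode leaves out reads that fall on both genes, so levels of such members may be too low. Among the genes described above this applied to Rps10 (28.7%), Rpl5 (26.7%) and Rpl30 (24.8%).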

How the data were processed

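RNA of sorted cells was sequenced for 4 LLRC and 4 non-LRC libraries. Per the labels and the methods of the study, the authors had the reads mapped at a service facility and counted with HTSeq (union mode, strand ignored, exons of the Ensembl genes of GRCm38.p4). The deposited table holds unnormalized whole-number counts. The aligner is not given in the sources used here. A second deposited table holds log2 fold changes and p-values of the authors' own comparison and was not used.

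Identifiers were matched to GENCODE M21 (GRCm38) for 46091 of 46603 rows. Counts were filtered with filterByExpr (13605 genes kept), scaled by TMM and compared in a model of group alone by the quasi-likelihood test of edgeR 4.0.16 (R 4.3.3), with Benjamini-Hochberg adjustment over all genes tested (threshold 0.05). Alternatives used DESeq2 1.42.0, limma 3.58.1, other filters and scalings, the mouse as replicate block and each library or mouse left out. The members and lists were chosen with earlier results of these data known. Genes named are the stalk proteins and Rpsa, the 5 members with the highest level per kb, the 5 highest and 5 lowest fold changes, the paralogs, members with an adjusted p below 0.05 (none), Rps6 and 9 of the Diamond-Blackfan genes, and extremes of the related lists. A few genes that this rule takes are not reported here. Rps16, Rps12, Rpl28, Rpl29, Rpl35 and Rpl7a were named after their values were seen. Pseudogenes were matched with blastn 2.17.0.

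Each mouse gave 1 library of either kind, which pairs them. Deviations from the group means correlated at 0.096, 0.074, 0.003 and 0.171 in JV602, JV621, JV624 and JV6314. Within a group, p-values measure the spread between mice. All genes encoded by the mitochondrial genome had 0 counts, and 18 pseudogenes that match them held 6.92% to 14.5% of counts. The lists for hematopoietic cells (42.1 to 99.1 CPM in any library) and pancreatic acinar cells (at most 23.5 CPM, and 2027 CPM in the non-LRC library of JV6314) were also summed.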

Additional observations from a re-analysis of the deposited data

Results flagged for a closer look

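Of 58 groups of 4 values examined, 4 held a library far from the other 3, where chance gives about 1 in 20. In the LLRC library of JV602, Rpl4 was at 213.5 CPM against 175.3 to 180.6 CPM in the other LLRC libraries, Rps19 at 20.5 CPM against 12.9 to 13.9 CPM, and Rps24 at 8.34 CPM against 10.6 to 10.8 CPM. Rpl9 was at 68.9 CPM in the non-LRC library of JV621 against 7.70 to 10.1 CPM in the other non-LRC libraries.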

How the results depend on the processing

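The number of members past the threshold was 0 under all 24 alternatives, and no call changed with the replicate block. The median log2 fold change of the members ranged from -0.35 (library size only) to 0.04 (mouse JV624 left out, replicate block). The number of members whose groups did not overlap, 2 in the main test, was 1 under upper-quartile scaling, with genes kept at 1 CPM in 2 libraries, with no filter and when members were summed with their pseudogenes. It was also 2 with library size only, but there Rpl35a and Rpl5 were the members and neither Rps6 nor Rpl34 was. It ranged from 2 to 8 when a library was left out, with 8 of 78 without non-LRC JV621 (8.73% of all genes), 4 of 78 without non-LRC JV602 (10.3%) and 4 of 77 without non-LRC JV624 (7.63%). With mouse JV602, JV621 or JV624 left out and the replicate block it was 4, 9 and 4, beside 14.2%, 10.8% and 10% of all genes. Over all 8 libraries the share of all genes was 4.06%. The cause was not tested.

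Of 648 log2 fold changes of the 27 named members under the alternatives, 606 kept their sign and 42, over 13 members, did not. None of these was called (lowest adjusted p 0.116, Rpl35a by DESeq2). With the replicate block, Rplp2 was at 5.15e-05 and Rpl9 at 0.034. With mouse JV602 left out as well, Rpl12 was at -0.070, Rpl22l1 at 0.00545 and Rpl11 at -0.058. Without mouse JV621, Rpl9 was at 0.85, Rpl30 at 0.072, Rpl22l1 at 0.16, Rpl7l1 at -0.10, Rpl11 at -0.17 and Rps24 at -0.018. Without mouse JV624, Rplp2 was at 0.38, Rpl22l1 at 0.17, Rps19 at 0.00708, Rps26 at 0.11 and Rps7 at 0.063. Without mouse JV6314, Rpl4 was at 0.10, Rps19 at 0.14 and Rps24 at -0.00598. Summed with pseudogenes, Rpl34 was at -0.10, Rpl12 at -0.31, Rpl11 at -0.17 and Rps24 at -0.14. Values that kept their sign but moved by over 1.5 times were then 0.037 for Rpl21, 0.18 for Rps20, -0.35 for Rpl9, -0.12 for Rpl30, -0.37 for Rpl27, -0.23 for Rplp0, -1.02 for Rpl35a and -0.064 for Rpl5. Rpl11 was at -0.00871 in DESeq2, -0.00205 with the newer dispersion, -0.015 with DESeq2 size factors and -0.10 with library size only, where Rps24 was at -0.053. Leaving out 1 library at a time gave ranges of -0.30 to 0.31 for Rplp2, -0.17 to 0.088 for Rpl4, -0.043 to 0.91 for Rpl12, -1.09 to 0.66 for Rpl9, -1.01 to 0.19 for Rpl30, -0.37 to 0.099 for Rpl22l1, -0.56 to 0.00647 for Rps19, -0.19 to 0.21 for Rpl11, -0.40 to 0.11 for Rps26 and -0.00621 to 0.26 for Rps24. One end of each range was reached without the non-LRC library of JV621 or of JV624. Ranges that kept their sign but moved by over 1.5 times were -0.74 to -0.050 for Rpsa, -0.74 to -0.26 for Rplp1, -0.51 to -0.23 for Rplp0, -0.69 to -0.28 for Rpl27, 0.20 to 0.89 for Rpl15, 0.22 to 0.74 for Rpl21, 0.25 to 0.60 for Rps20, -0.23 to -0.019 for Rpl5, -0.41 to -0.017 for Rps7, 0.012 to 0.52 for Rps27l and 0.00226 to 0.38 for Rpl7l1.

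The members had a median of 44.0 to 161.5 counts per library.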
